A study of Mus musculus with 6 samples.

Results

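The insulin-like growth factor (IGF) family is described here in mouse endothelial cells that overexpress the extracellular superoxide dismutase SOD3. The 10 members were the ligands *Igf1* and *Igf2*, the receptors *Igf1r* and *Igf2r*, and the binding proteins *Igfbp2* to *Igfbp7*. They were found as the non-control spots whose annotation names 1 of these genes, which gave 16 probes and 30 spots, of the 55681 probes, 35668 genes and 59305 non-control spots of the array. RNA came from 1G11-mock and 1G11-SOD3 cells, labeled as strain C57BL/6NCrLBR and with SOD3 overexpression NO or YES. 1G11 is a mouse microvascular endothelial cell line. Before RNA was taken, both lines spent 6 h in conditioned medium of the mouse mammary cancer cell line N202.1A, so that no value without this medium enters the comparison. Each cell line gave 3 biological replicates, 1 single-color Agilent array each, and each condition was 1 cell line, so that p-values measure the spread between replicates of these lines. The study's methods call the lines transfected; the vector, and whether a line was 1 clone, are not given in the sources used here.

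IGF-I and IGF-II are secreted growth factors that bind the tyrosine kinase receptor IGF1R, which signals through the receptor substrates to the PI3K/AKT and MAP kinase pathways and favors survival and growth. IGF2R, also the cation-independent mannose 6-phosphate receptor, takes up IGF-II for degradation in lysosomes and does not signal as a kinase. The binding proteins hold most of the extracellular IGF and release it when proteases cut them, and in the vessel wall smooth muscle cells are a known source of IGF-I, which acts on neighboring cells.

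A probe is a 60-base sequence, and the sequences below are 30-base stretches of the probes on which the results turn. The first 4 belong to the variant 1 probes of *Igf1*, of which 3 passed the test, and the fifth to its variant 2 probe, at which the lines overlapped. Each name gives the first base of the probe in the mRNA record on which it was designed. The stretches are the first 30 bases of their probes, except at base 889, where the last 30 are printed (bases 919 to 948). The 2 probes at bases 889 and 909 overlap by 40 bases, and the capitals mark 20 bases that both of the printed stretches hold.
Igf1, variant 1, base 889: CATTACAAAGATGGGCATTTcccccaatga
Igf1, variant 1, base 909: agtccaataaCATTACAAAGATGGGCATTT
Igf1, variant 1, base 3252: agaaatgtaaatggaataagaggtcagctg
Igf1, variant 1, base 6909: ctcctgattgtatttgaagtggttattcaa
Igf1, variant 2, base 1027: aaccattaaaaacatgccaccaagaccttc
Igf1r, base 11885: gctaaagctaaggccacttgagtctattac
Igf2r, base 8733: agagttgtatataggtggcatttacatacc
Igfbp6, base 1197: ctgtcacccttgggcctttacacagctagt

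The array annotation places the 4 variant 1 probes of *Igf1* on the plus strand of chromosome 10, in a stretch of 6080 bases whose offsets are the same as in the mRNA record. In that annotation, whose build the deposited data do not name, they start at 87393561, 87393581, 87395924 and 87399581. The variant 2 probe starts at 87378456 and ends 15046 bases before the first of them, so that the *Igf1* probes read distant parts of the gene. The *Igf1r* probe lies on chromosome 7 from 75378461 to 75378520 on the plus strand, and the *Igfbp6* probe on chromosome 15 from 101979852 to 101979911 on the plus strand.

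Values are log2 intensities after background correction and quantile normalization, and a probe was called when the difference was above 2-fold and its p, adjusted over all probes, was under 0.05 (limma). Between 34.2% and 43.8% of spots per array were well above background by the criterion of the scanner software. The 1G11-mock arrays occupied another row of the slide than the 1G11-SOD3 arrays, so that cell line and slide row cannot be told apart. Spots in a block of central rows and columns that holds 6606 of the non-control spots, called the middle of the array below, read dim on the 1G11-mock arrays. Among 128 bright probes printed 10 times with copies in both places, the difference between the lines was larger in the middle for 128, with a median excess of 1.74 (log2). Values are therefore also given position adjusted, meaning after removal of a smooth surface over rows and columns from each array. Of the 30 member spots, 5 lie in the middle, namely 3 of the 10 copies of *Igf2r* and 1 of the 2 copies of the *Igf1* probes at bases 889 and 6909. The *Sod3* probe, which lies in the middle, read 13.61, 12.66 and 9.86 in 1G11-mock and 16.37, 16.30 and 16.26 in 1G11-SOD3 cells. Its log2 fold change was 4.27 ± 0.702 (SE, adjusted p = 0.00764) or, position adjusted, 2.77. With 1G11-SOD3 replicate 3 left out, it was at 4.32 (adjusted p = 0.0509), and with 1G11-mock replicate 3 left out at 3.17 (adjusted p = 0.00152).

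*Igf1* was the single member gene called, and it was higher in 1G11-SOD3 cells. Of the 16 member probes, 3 were called higher and 0 lower, all 3 being *Igf1* probes, against 1.87% of all probes called higher and 1.06% called lower. Among the 13 member probes with every copy outside the middle, 1 was called higher, against 0.642% of all such probes. Counted by the brightest probe of each gene, 1 of 10 members was called, against 3.47% of all genes in either direction. The brightest probe was chosen over the arrays of both lines, so that for *Igf1* the high 1G11-SOD3 values entered the choice. On the 1G11-mock arrays alone the variant 2 probe at base 1027, which was not called, was brighter than the chosen probe at base 909 (means 10.66 and 10.29). After position adjustment the same 3 *Igf1* probes were called higher, against 1.08% of all probes, and 1 of 10 members was called, against 4.03% of all genes.

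The brightest *Igf1* probe, at base 909, read 10.14, 9.68 and 11.06 in the 3 replicates of 1G11-mock cells and 13.16, 13.25 and 14.86 in those of 1G11-SOD3 cells. Every 1G11-SOD3 array was above every 1G11-mock array, and replicate 3 was the highest in each cell line. The log2 fold change was 3.46 ± 0.458 (SE, n = 3 per line), with a 95% interval from 2.46 to 4.47 (adjusted p = 0.00246, limma). Both copies of this probe lie outside the middle, and with position adjustment it was at 3.69 (adjusted p = 0.00162).

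The overlapping probe at base 889 read 9.48, 8.54 and 8.83 in 1G11-mock and 13.19, 12.76 and 14.70 in 1G11-SOD3 cells. Its log2 fold change of 4.60 ± 0.44 (adjusted p = 0.000379) was the largest among the members as normalized, and 1 of its 2 copies lies in the middle. That copy, well above background on 1 1G11-mock array, gave 5.23 and the other 3.98. After position adjustment they became 2.87 and 3.64. The whole probe was then at 3.26 (adjusted p = 0.00200), below the probes at bases 909 (3.69) and 6909 (3.29). The size of the difference at this probe thus moved with the place of the copy, and the copy outside the middle was called when fitted alone (adjusted p = 0.000214).

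Near the end of the long variant 1 record, the probe at base 6909 read 8.56, 7.94 and 8.24 in 1G11-mock and 10.95, 10.97 and 14.01 in 1G11-SOD3 cells, which was a log2 fold change of 3.73 ± 0.647 (adjusted p = 0.0102). Its copy in the middle, well above background on 1 1G11-mock array, gave 4.41 and the copy elsewhere 3.04. It lost its call without 1G11-mock replicate 2 (3.62, adjusted p = 0.0672) and with no background correction (3.19, adjusted p = 0.0690). The probe at base 3252 read 8.21, 7.56 and 7.73 in 1G11-mock and 9.32, 9.15 and 11.76 in 1G11-SOD3 cells, with no overlap, but its log2 fold change of 2.24 ± 0.555 missed the threshold (adjusted p = 0.0560). 1 of the 1G11-mock arrays did not show this probe well above background, and it was called without 1G11-SOD3 replicate 2 (2.69, adjusted p = 0.0248). Both of its copies lie outside the middle, and each was well above background on 1 1G11-mock array. They gave 2.07 and 2.41, which became 2.08 and 1.84 after position adjustment, and the whole probe was then at 1.96 (adjusted p = 0.0985).

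The variant 2 probe at base 1027 read 10.38, 10.62 and 10.97 in 1G11-mock and 10.80, 10.63 and 12.01 in 1G11-SOD3 cells. The cell lines overlapped at this probe, and the log2 fold change of 0.49 had a 95% interval from -0.27 to 1.25 (adjusted p = 0.580), which leaves room for a difference of more than 2-fold. It was well above background on all 6 arrays. The difference between the lines exceeded that of the variant 2 probe by 4.11, 2.97, 1.75 and 3.24 on the log2 scale at bases 889, 909, 3252 and 6909. For each of the 4, every 1G11-SOD3 array was on one side of every 1G11-mock array (exact two-sided permutation test, p = 0.1, the smallest that 3 against 3 arrays allow). Position adjusted, these values were 2.63, 3.06, 1.33 and 2.66. This comparison was chosen after the values had been seen, so that its p cannot serve as a test. All 4 differences also use the same variant 2 values and are no separate evidence.

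**Figure D1:**
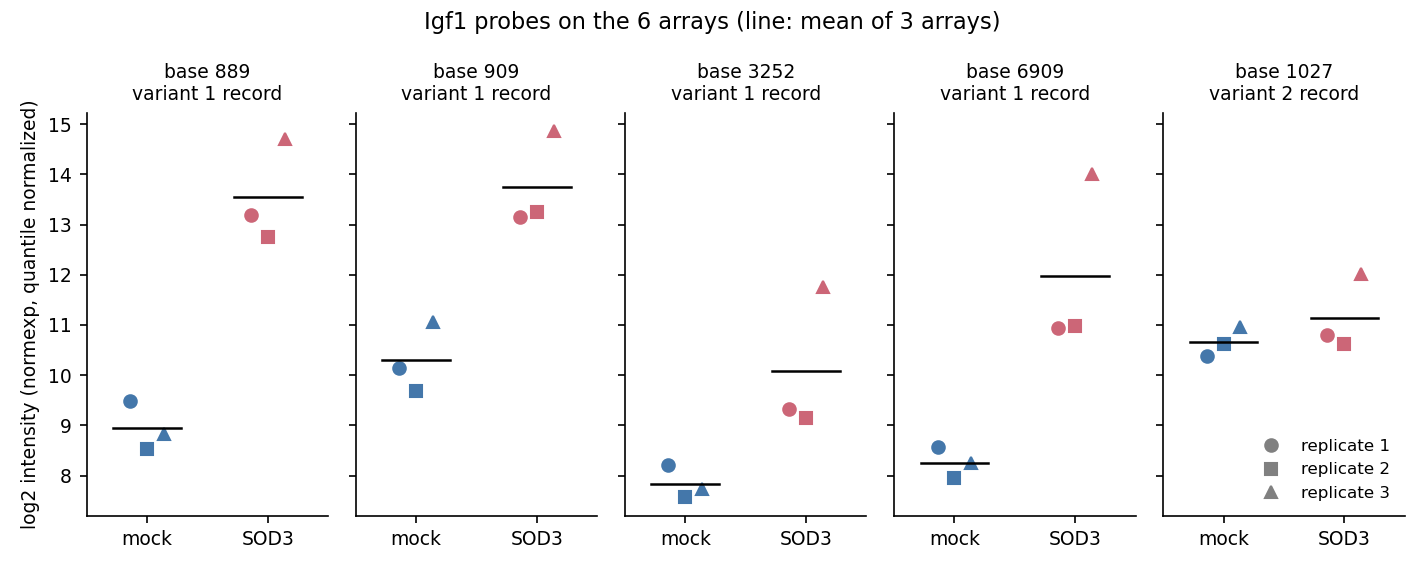
Log2 intensity (vertical axis) of the 5 Igf1 probes in 1G11-mock and 1G11-SOD3 cells, with 1 symbol per array and a line at the mean of 3 arrays. At the 4 variant 1 probes the 1G11-SOD3 arrays lie above all 1G11-mock arrays, with differences of the means from 2.24 to 4.60, whereas the lines overlap at the variant 2 probe. Levels of different probes are not comparable with each other.

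1G11-SOD3 replicate 3 stood apart at every *Igf1* probe. It was above the mean of replicates 1 and 2 by 1.29 to 3.05 on the log2 scale, whereas over the 16362 probes well above background on all arrays the same difference had a median of -0.04 and 95% of values between -0.95 and 1.15. Without that array the log2 fold changes were 4.005 at base 889 (adjusted p = 0.00184), 2.93 at base 909 (adjusted p = 0.0104), 2.65 at base 6909 (adjusted p = 0.00378), 1.33 at base 3252 (adjusted p = 0.0509) and 0.06 at base 1027 (adjusted p = 0.942). The same 3 probes were thus called, with smaller differences. The probe at base 909 was called in all 6 fits that left out 1 array, with log2 fold changes from 2.93 to 3.86, and so was the probe at base 889, from 4.005 to 4.96.

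Fitted spot by spot, 6 of the 10 *Igf1* spots were called higher, both as normalized and after position adjustment. Among all member spots, 5 of the 25 outside the middle were called higher, against 0.782% of all such spots, and 4 of the 5 in the middle, against 12.8%. The spots of 1 probe share their sequence and their sample and are no separate evidence. Outside the middle the called spots were 4 of *Igf1* and 1 of *Igf2r*, and in the middle 2 of each.

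Some markers of other vessel wall cells were also called higher. Of the 6 fibroblast and pericyte markers, 3 were called higher in 1G11-SOD3 cells and 0 lower, against 2.17% and 1.31% of all genes. They were the collagen chain *Col1a1* (3.097, adjusted p = 0.00148), the PDGF receptor *Pdgfrb* (2.40, adjusted p = 0.000363) and *Lum*, a collagen-binding proteoglycan, which no 1G11-mock array showed well above background and which was at least 2.24-fold higher. The summed level of all 6 markers ranged from 14.30 to 15.09 in 1G11-mock and from 15.00 to 17.37 in 1G11-SOD3 cells on the log2 scale. This sum includes the decorin gene *Dcn*, which was not called and read 14.78, 14.48 and 14.04 in 1G11-mock cells. *Dcn* too was highest in 1G11-SOD3 replicate 3, at 17.05 against 13.51 and 13.59 in replicates 1 and 2. It was the brightest of the 6 on every 1G11-mock array and on 1G11-SOD3 replicate 3. *Lum* read 8.80, 8.61 and 10.33 in the 1G11-SOD3 replicates and lost its call without any 1 of the 1G11-mock replicates or without 1G11-SOD3 replicate 3 (1.27, adjusted p = 0.0723).

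Of the 5 smooth muscle markers, 3 were again called higher (2.17% of all genes), namely the actin *Acta2* (3.01, adjusted p = 0.000379), the actin-binding *Cnn1* (at least 4.70-fold) and *Tagln* (1.45, adjusted p = 0.0109), while the smooth muscle myosin *Myh11* and *Des* were near background throughout. The summed level of all 5 ranged from 10.95 to 11.23 in 1G11-mock and from 12.93 to 13.91 in 1G11-SOD3 cells, and *Acta2* was lowest in 1G11-SOD3 replicate 3, unlike *Igf1*. With 1G11-SOD3 replicate 2 left out, the adjusted p of *Tagln* was 0.0509. All 6 calls in these 2 lists remained after position adjustment. The part of these cells or their genes in the *Igf1* result was not tested, and more such cells and more RNA per cell cannot be told apart.

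Of the 11 endothelial markers, 1, *Vwf*, was called lower (-1.66, adjusted p = 0.00344), against 1.31% of all genes, and the receptors *Kdr* and *Eng* were well above background on every array without a call, although *Eng* was called lower without 1G11-mock replicate 1 (-1.34, adjusted p = 0.0249). The receptor *Flt1*, named after its values had been seen, was well above background on 2 1G11-mock and 3 1G11-SOD3 arrays. It lay higher in 1G11-SOD3 cells without a call (1.08, adjusted p = 0.219). Its spot lies in the middle, and position adjusted it was at 0.22. No array showed *Cdh5*, *Tek*, *Tie1*, *Emcn* or *Erg*, which mark endothelial cells, well above background. These were the only 5 of the 11 without such an array, and every other marker had at least 1. The study's methods state that staining for VE-cadherin, the product of *Cdh5*, was used to check the endothelial origin of 1G11 cells. The summed endothelial level ranged from 14.34 to 14.86 in 1G11-mock and from 13.74 to 14.00 in 1G11-SOD3 cells. This sum rests mostly on *Eng* and *Kdr*, the brightest of the 11, which position adjusted were at -0.67 (adjusted p = 0.161) and -0.46 (adjusted p = 0.255). The median log2 fold change was -0.03 over the 11 markers and -0.78 over the 4 well above background on every array of a line. None of the 5 epithelial and 5 leukocyte markers was called, with *Epcam* and *Ptprc* not well above background, although the keratin *Krt19* and the leukocyte genes *Cd68*, *Itgam* and *Cd3e* were well above background on all arrays.

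**Figure D2:**
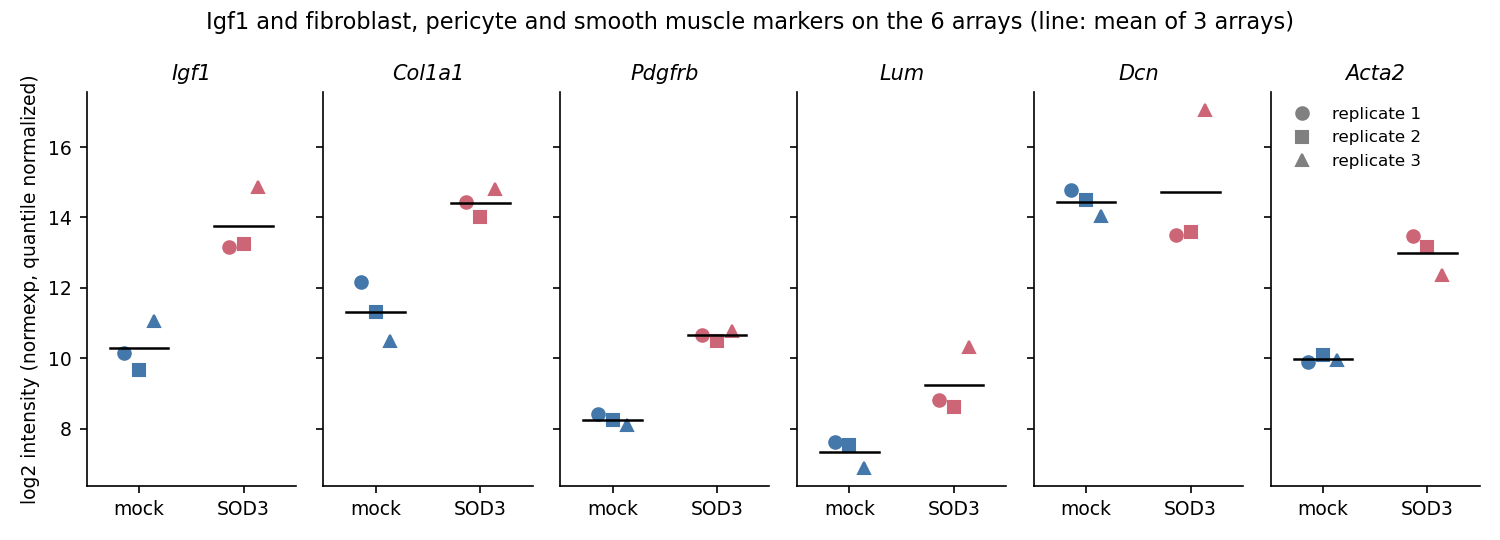
Log2 intensity (vertical axis) of the brightest Igf1 probe and of 5 marker genes, with 1 symbol per array and a line at the mean of 3 arrays. Igf1, Lum and Dcn were highest in 1G11-SOD3 replicate 3 (14.86, 10.33 and 17.05), whereas Acta2 was lowest there among the 1G11-SOD3 arrays (12.35). The genes drawn were chosen after their values had been seen.

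The second ligand gene, *Igf2*, which is imprinted and expressed mainly before birth in the mouse, was not well above background on any of the 6 arrays at its 1 probe. No difference can be given for it at this signal.

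The IGF-I receptor gene *Igf1r* was not called, and its values lay lower in 1G11-SOD3 cells. Its probe read 13.14, 12.76 and 12.13 in 1G11-mock and 11.78, 11.41 and 11.53 in 1G11-SOD3 cells, with all values of 1G11-SOD3 under the lowest of 1G11-mock. The log2 fold change of -1.10 ± 0.28 (95% interval from -1.72 to -0.49) missed the threshold (adjusted p = 0.0615). Its spot lies outside the middle, and the position-adjusted value of -0.66 was farther from it (adjusted p = 0.214). It was called lower without 1G11-mock replicate 3 (-1.38, adjusted p = 0.0255), the array on which the 1G11-mock level was lowest.

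*Igf2r*, the uptake receptor, was printed 10 times, and the difference between the lines depended on where the copy lay. Over the mean of all copies the probe read 11.30, 11.08 and 10.55 in 1G11-mock and 11.84, 11.57 and 12.14 in 1G11-SOD3 cells, and the log2 fold change of 0.88 ± 0.266 was not called (adjusted p = 0.124). The 7 copies outside the middle ranged from -0.09 to 1.25, with a median of 0.24, and the 3 copies in the middle gave 0.96, 2.40 and 2.90. In the middle the 3 copies averaged 10.80, 9.77 and 8.75 on the 1G11-mock arrays and 11.83, 11.49 and 12.27 on the 1G11-SOD3 arrays.

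Elsewhere the 7 copies of *Igf2r* averaged 11.51, 11.65 and 11.32 on the 1G11-mock arrays and 11.85, 11.60 and 12.09 on the 1G11-SOD3 arrays, so that the lowest averages were those of the middle on 1G11-mock arrays. Single copies did not split cleanly by place. The copy at row 261 and column 86, outside the middle, read 11.08, 10.96 and 10.27 on the 1G11-mock arrays. The copy at row 155 and column 102, in the middle, read 11.07, 11.39 and 10.22 there. Fitted alone, 2 of the 3 copies in the middle and 1 of the 7 elsewhere, the copy at row 261 (1.25), were called higher. After position adjustment 0 of the 10 were called, the copies elsewhere ranged from 0.19 to 0.45 and those in the middle from 0.38 to 0.92, and the SD among the copies fell from 1.04 to 0.234. The position-adjusted value of the whole probe was 0.46 (adjusted p = 0.289).

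**Figure D3:**
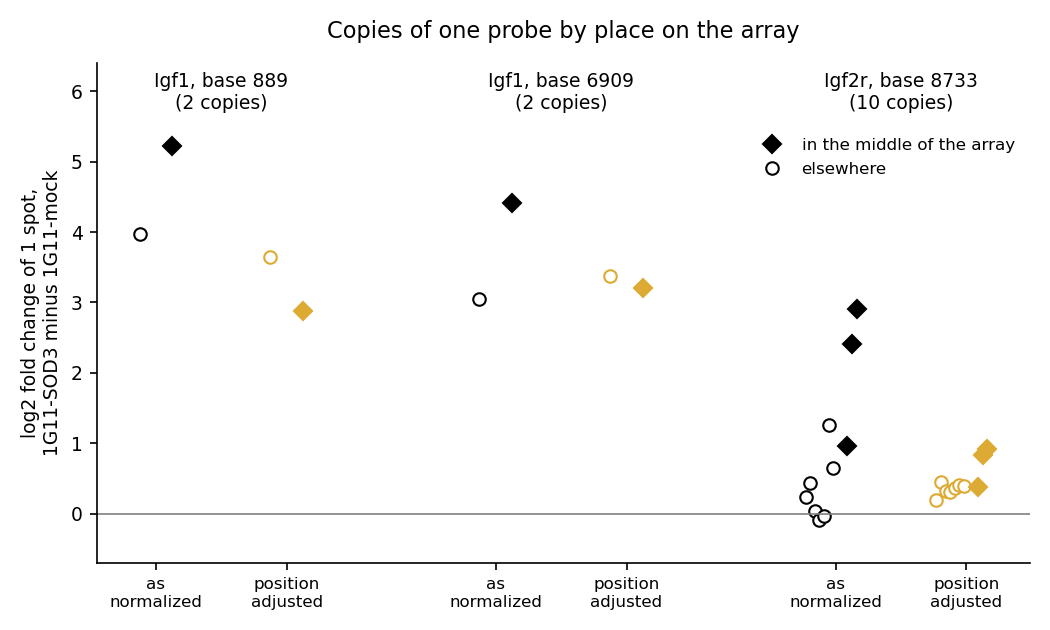
Log2 fold change of single spots (vertical axis, 1G11-SOD3 minus 1G11-mock) for the 3 IGF family probes with copies in the middle of the array (diamonds) and elsewhere (open circles), as normalized (black) and position adjusted (yellow). For Igf2r the copies in the middle lie at 0.96 to 2.90 and those elsewhere at -0.09 to 1.25 before adjustment, and all 10 lie between 0.19 and 0.92 after it, whereas the Igf1 copies stay at 2.87 or above.

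No binding protein gene was called. *Igfbp6*, whose product prefers IGF-II, was the one binding protein well above background on all arrays. It read 15.27, 15.52 and 15.01 in 1G11-mock and 14.67, 14.50 and 14.93 in 1G11-SOD3 cells. These values did not overlap between the lines, but the difference of -0.56 ± 0.239 did not pass the test (adjusted p = 0.304), nor did it after position adjustment (-0.65, adjusted p = 0.143).

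*Igfbp4*, the binding protein that the pappalysin PAPP-A cuts, read 7.59, 7.68 and 7.45 in 1G11-mock and 8.34, 8.24 and 8.18 in 1G11-SOD3 cells. The 3 1G11-SOD3 arrays and 0 of the 1G11-mock arrays showed it well above background. The means put it at least 1.13-fold higher in 1G11-SOD3 cells, a bound without an interval, and it was not called (adjusted p = 0.14). *Igfbp2*, with 2 probes, was well above background on 1 1G11-SOD3 array at base 958 and on none at base 1094. *Igfbp3*, the main carrier of IGF in blood (2 probes), *Igfbp5* and *Igfbp7*, a low-affinity binder associated with vessels, did not stand well above background anywhere, so no fold change is given for them.

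Counted by the brightest probe, 7 of the 10 members did not overlap between the lines, against 21.9% of all genes. They were *Igf1*, *Igf2r*, *Igfbp4* and *Igfbp5* with higher values and *Igf2*, *Igf1r* and *Igfbp6* with lower values in 1G11-SOD3 cells, and *Igf2* and *Igfbp5* were not well above background. The mean of the 7 *Igf2r* copies outside the middle did overlap, at 11.65 in 1G11-mock replicate 2 and 11.60 in 1G11-SOD3 replicate 2. Of these 7 genes, 1 was called.

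**Figure D4:**
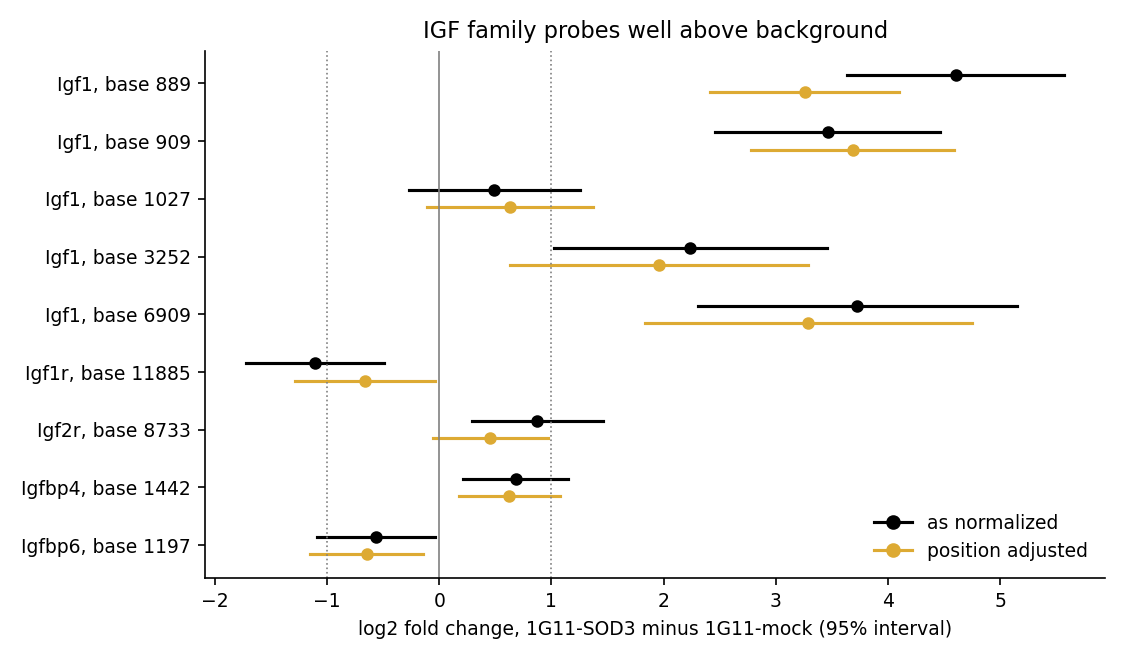
Log2 fold change (horizontal axis, 1G11-SOD3 minus 1G11-mock) with its unadjusted 95% interval for the 9 IGF family probes well above background on at least 2 arrays, as normalized (black) and position adjusted (yellow), with dotted lines at a 2-fold difference. The 4 variant 1 probes of Igf1 lie at 2.24 to 4.60 as normalized, and the Igf1r probe moves from -1.10 to -0.66 with the adjustment.

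Genes that act with the family were followed in 5 lists, which together hold 75 genes on the array. Of these, 50 were well above background on every array of at least 1 line, 2 were called higher and 1 lower, against the same 3.47% of all genes in either direction, and their median log2 fold change was -0.03 against -0.04 over all genes. The lists described 3 levels of the system, namely the supply of free ligand, the relay below the receptor, and the transcripts that answer it.

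Among 8 proteases of binding proteins and their inhibitors, 4 were well above background on every array of a line and 1 was called. *Htra1*, a secreted serine protease that cuts binding proteins, read 11.96, 11.73 and 12.21 in 1G11-mock and 13.63, 13.61 and 13.16 in 1G11-SOD3 cells. It was higher by 1.501 ± 0.242 (adjusted p = 0.00690), stayed called in all 6 fits that left out 1 array, and was at 1.79 after position adjustment. *Pappa* and the inhibitor *Stc1* were near background throughout, and the inhibitor *Stc2* was at -0.23 (adjusted p = 0.817). *Pappa2*, a protease related to PAPP-A and named here after its values had been seen, was well above background on the 3 1G11-SOD3 arrays alone. The means put it at least 1.31-fold higher, again without an interval. It was called after position adjustment (1.22, adjusted p = 0.0117) but not before (0.89, adjusted p = 0.0756).

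Among 11 relatives of the family, 5 were well above background on every array of a line and 0 were called. *Igfbp1*, mainly a product of the liver, was not well above background on any array. The insulin receptor gene *Insr*, whose product can pair with IGF1R, was at -0.24 (adjusted p = 0.682). The receptor substrate *Irs1* read 12.05, 11.99 and 11.91 in 1G11-mock and 11.21, 11.23 and 10.82 in 1G11-SOD3 cells, with no overlap. Its difference of -0.90 was under 2-fold (adjusted p = 0.0580).

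The 31 genes of receptor signaling on the array, from adaptors to kinases and FoxO factors, held the most measured members, 26 of them well above background on every array of a line. None was called, and their median was -0.10. The adaptor *Shc1* was at 0.22 (adjusted p = 0.765), the PI3K subunit *Pik3r1* at -0.26 (adjusted p = 0.787), and *Grb10*, which dampens receptor signaling, was not well above background on any array. The MAP kinase kinase *Map2k1*, named after its values had been seen, was at -1.21 (adjusted p = 0.0633) and was called lower without 1G11-mock replicate 1 (adjusted p = 0.0312). Transcript levels do not give the activity of these kinases.

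Of 15 genes that act on IGF mRNAs or are imprinted like *Igf2* and *Igf2r*, 5 were well above background on every array of a line and 0 were called. *H19*, the imprinted neighbor of *Igf2*, was not well above background on any array. The IGF2 mRNA-binding protein gene *Igf2bp1* was at 0.31 (adjusted p = 0.785), and *Igf2bp2* at -0.99 had an adjusted p of 0.0438 but stayed under 2-fold, and was at -0.41 after position adjustment. *Airn*, the antisense RNA of the *Igf2r* locus, was named after its values had been seen. It read 10.53, 10.56 and 10.39 in 1G11-mock and 10.98, 11.40 and 12.53 in 1G11-SOD3 cells (1.14, adjusted p = 0.125), again highest in 1G11-SOD3 replicate 3.

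The 12 FoxO targets are genes that FoxO factors switch on and that insulin and IGF signaling are known to hold back. Of these, 11 were well above background on every array of a line, 1 was called higher and 1 lower. *Pdk4*, a kinase that inhibits pyruvate dehydrogenase, was higher by 1.12 ± 0.218 (adjusted p = 0.0189). Its 1 spot lies in the middle, and position adjusted it was at 0.74 and not called (adjusted p = 0.0739). Its call was also lost when 1G11-SOD3 replicate 1, 1G11-SOD3 replicate 2 or 1G11-mock replicate 2 was left out (adjusted p from 0.0703 to 0.0951). The transcriptional repressor *Bcl6* was called lower (-1.10, adjusted p = 0.0244), also after position adjustment, but in 0 of the 6 fits that left out 1 array (adjusted p from 0.0573 to 0.0869). *Irs2* was at 0.19 (adjusted p = 0.845), the cyclin *Ccng2* at 0.24 (adjusted p = 0.819) and the stress-response gene *Sesn1* at 0.36 (adjusted p = 0.551). The targets thus did not move in 1 direction, and their median was -0.04.

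**Figure D5:**
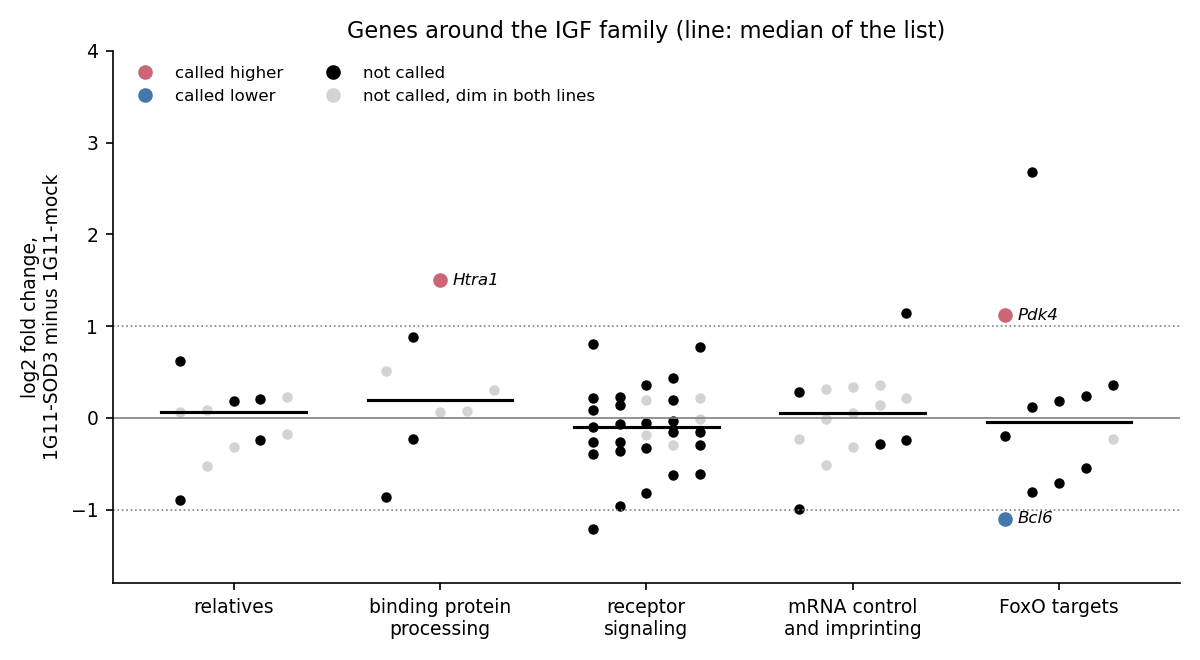
Log2 fold change (vertical axis, 1G11-SOD3 minus 1G11-mock) of the genes of 5 lists around the IGF family, 1 dot per gene, with a line at the median of the list and dotted lines at a 2-fold difference. The called genes Htra1 (1.501), Pdk4 (1.12) and Bcl6 (-1.10) are named, the medians of the lists lie between -0.10 and 0.19, and gray dots are genes that were dim on at least 1 array of each line.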

How the data were processed

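Total RNA of 3 1G11-mock and 3 1G11-SOD3 replicates was hybridized to 6 single-color arrays. The authors deposited, per array, the output of Feature Extraction 10.7.3.1, with mean, median and local background intensity, a processed signal and spot flags, not normalized between arrays, and a table of log2 values after normexp correction and quantile normalization. The table, with a median of 7.52 per array, served as an alternative.

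Mean intensities were corrected with normexp (local background median), taken to log2 and quantile normalized. The methods of the study state normexp with an offset of 50, used here too, but not whether mean or median intensities entered. Control spots were left out and copies of a probe averaged. The lines were compared with limma 3.58.1 in R 4.3.3 over 55681 probes with Benjamini-Hochberg adjustment. No spot of a member was marked as an outlier and none was saturated. A gene was read from its brightest probe by the mean over the arrays. Bounds, given as at least so many fold, compare the 1G11-SOD3 mean with, per 1G11-mock array, the higher of the probe's signal and the lowest signal well above background. They do not allow for the spread between replicates. The position surface was the running median (12 rows and 6 columns to each side) of each array's deviation from the mean of the arrays. Precision was limited by 3 arrays per line and by signal over background. The procedure was run on simulated data with independent noise and with differences added to brighter probes alone. These data held no position effect, so that this run does not bear on calls near background or in the middle. The members, the lists and the rules were chosen with earlier results of these data known, and the text names every member, *Sod3*, the called genes and the first genes of each list, others being marked, and 1 gene of the lists is not reported by name. Fits of single spots were added after seeing the data. Probes were named from the accession or name in the annotation (Python 3.11.15, numpy 2.4.6, pandas 2.3.3, matplotlib 3.10.9), and sequences are those of the array design. Settings tried were the background correction, offset, signal column, normalization, control, dim and outlier spots, variance trend, replicate block, place on the array, choice of probe, call rule and leaving out each array.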

Additional observations from a re-analysis of the deposited data

How the results depend on the processing

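Of 180 fits of the 9 IGF family probes under other settings, 169 left the direction and the call as reported, 9 made a call, 2 lost one, and 0 turned the direction. The number of member probes called, 3 as reported, became 7 when the processed signal was used and 5 when dim probes were dropped, and the number of member genes, 1 as reported, became 3 and 2. With the replicate block the counts were 5 probes and 2 genes, but the replicate numbers do not show pairing (correlations of the deviations of same-numbered arrays of 0.166, 0.225 and 0.087). Leaving out 1 array gave 2 to 4 probes and 1 to 2 genes, the 2 being reached without 1G11-mock replicate 3, where *Igf1r* was called. Of the pathway genes, 3 as reported, 8 were called on the processed signal, 5 without dim probes, 5 with the replicate block, 5 at an adjusted p under 0.05 at any fold, 1 without the spots of the middle and 1 to 4 without 1 array, 1 being reached without 1G11-mock replicate 2 or 1G11-SOD3 replicate 1. Called with the processed signal alone were *Igfbp4*, higher (1.37, adjusted p = 0.0332), and, lower, *Igfbp7* (-1.22, adjusted p = 0.0340) and the *Igfbp3* probe at base 1882 (-1.11, adjusted p = 0.0444), the latter 2 not well above background on any array. The causes were not tested. Signal near background limits what can be said of *Igf2* and 4 of the binding protein genes, and the number of arrays limits every other difference.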
